A study of Rattus norvegicus with 22 samples.

Results

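The 8 genes described here govern how a cell senses, exports and stores cholesterol. They are Srebf2, Insig1 and Nr1h3 on the sensing side, the exporters Abca1 and Abcg1, the oxysterol-forming enzymes Ch25h and Cyp27a1, and the esterifying enzyme Soat1. They were chosen by name. Every probeset annotated to one of these symbols was taken, which gave 15 of the 31042 probesets of the array that are not array controls and 8 of the 14217 genes that have a probeset of their own. Each gene is represented by its probeset of highest mean signal, and the remaining 7 probesets, which belong to Srebf2, Abca1, Abcg1 and Soat1, are described beside it. No receptor for cholesterol uptake is among the 8 genes.

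The samples were whole right lung lobes of male Sprague-Dawley rats of approximately 350 g, 1 Affymetrix Rat Genome 230 2.0 array per rat. Pulmonary embolism (PE) was modelled by injecting 25 micron polystyrene microspheres, suspended in 0.01% Tween-20, into the right jugular vein. Mild PE was 1300000 microspheres per 100 g body weight in 0.10 ml, Severe PE was 2000000 per 100 g in 0.15 ml, and Vehicle rats received 0.15 ml per 100 g of 0.01% Tween-20 with no microspheres. Lungs were taken 2 or 18 h later from 4 Severe PE, 4 Mild PE and 3 Vehicle rats at each time, making up 22 arrays in 6 groups. Every lung was lavaged with 8 ml saline before excision, which removes part of the free cells of the airspace. The microspheres are inert particles that plug small arteries and are not blood clots. Because RNA came from whole tissue, fewer cells of a type and less RNA per cell cannot be told apart in any value below.

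Animal cells keep free cholesterol within a narrow range. When sterol in the endoplasmic reticulum is low, SREBP-2, the product of Srebf2, is released to switch on synthesis and uptake genes, and INSIG1 holds it back when sterol is plentiful. When sterol is in excess, oxysterols activate the liver X receptors (one of which is Nr1h3), which raise Abca1 and Abcg1, while SOAT1 turns the surplus into cholesteryl esters. In the lung these steps are best known from alveolar macrophages, which clear surfactant lipid, and from alveolar type II cells, which make it.

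Values are log2 signals after quantile normalization, so a difference of 1 is a 2-fold change, and differences are between group means with their standard error (SE). A gene was called changed when the Benjamini-Hochberg adjusted p of limma's moderated test, taken over all 31042 probesets, was under 0.05 and the change at least 1.5-fold. In 5 arrays (rat 3 of 2-h Vehicle, rat 1 of 2-h Severe PE, rat 1 of 18-h Vehicle, rat 4 of 18-h Mild PE and rat 3 of 18-h Severe PE) the Gapdh control had a 3' over 5' difference above 0.3 on the log2 scale. It reached 0.64 in 18-h Vehicle rat 1 against a median of 0.21 over the 22 arrays. These 5 are called the 3'-biased arrays below, and the part of this bias in the results was not tested beyond fits without them. The main probesets of the 8 genes lay between the 85.0 and 97.8 percentile of mean signal over the array, and none was at the floor in any rat.

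The promoters of 4 of the genes are shown because their genes moved in different ways. Insig1 rose late and Ch25h was high in Severe PE lungs at both times. Abca1 fell late by its main probeset, and Srebf2 was called nowhere. Each is the RefSeq sequence (rat build GRCr8) from 250 bases before to 50 bases after the transcription start, written 5' to 3' along the gene. The windows are chr4:8057720-8058019, minus strand, for Insig1, chr7:115543057-115543356, plus strand, for Srebf2, chr1:241429317-241429616, minus strand, for Ch25h, and chr5:72596424-72596723, minus strand, for Abca1. Capitals mark matches to 5 motifs searched on either strand: the sterol regulatory element core TCACNCCA, the E-box CACGTG, the CCAAT box CCAAT, the cyclic AMP response element TGACGTCA, and the direct repeat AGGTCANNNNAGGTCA of nuclear receptor half-sites. No 2 of the matches overlapped.
Insig1: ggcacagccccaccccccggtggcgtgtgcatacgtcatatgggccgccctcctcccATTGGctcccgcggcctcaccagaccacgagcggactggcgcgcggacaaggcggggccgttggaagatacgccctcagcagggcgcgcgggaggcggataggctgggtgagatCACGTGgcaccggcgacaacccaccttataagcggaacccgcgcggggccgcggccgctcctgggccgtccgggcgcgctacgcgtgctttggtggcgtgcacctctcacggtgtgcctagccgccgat
Srebf2: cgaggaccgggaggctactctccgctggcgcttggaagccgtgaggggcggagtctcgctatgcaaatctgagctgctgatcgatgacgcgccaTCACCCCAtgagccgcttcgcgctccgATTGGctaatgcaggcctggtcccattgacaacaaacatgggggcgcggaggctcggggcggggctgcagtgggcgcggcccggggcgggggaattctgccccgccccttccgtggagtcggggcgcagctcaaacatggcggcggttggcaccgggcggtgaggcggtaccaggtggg
Ch25h: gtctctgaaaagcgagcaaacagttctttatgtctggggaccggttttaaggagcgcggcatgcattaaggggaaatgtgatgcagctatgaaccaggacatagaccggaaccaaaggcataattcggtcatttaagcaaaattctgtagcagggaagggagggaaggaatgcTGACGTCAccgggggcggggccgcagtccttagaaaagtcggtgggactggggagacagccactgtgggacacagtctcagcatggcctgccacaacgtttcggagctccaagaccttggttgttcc
Abca1: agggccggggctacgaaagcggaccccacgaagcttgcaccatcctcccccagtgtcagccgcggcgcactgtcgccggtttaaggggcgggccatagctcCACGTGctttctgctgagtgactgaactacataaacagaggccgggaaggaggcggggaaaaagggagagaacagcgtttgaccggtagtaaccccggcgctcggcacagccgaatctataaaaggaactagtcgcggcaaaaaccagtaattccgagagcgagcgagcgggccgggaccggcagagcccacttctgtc

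In these windows Srebf2 held the sterol regulatory element core, at positions -156 to -149 from the start, which is present in 3.89% of the 33469 rat promoters in the table. It also held a CCAAT box on the other strand. Insig1 held an E-box and a CCAAT box, and Abca1 held an E-box, a motif of 6.42% of promoters. The cyclic AMP response element stood at positions -77 to -70 of Ch25h and occurs in 1.83% of promoters. Of the members whose promoters are not printed, Cyp27a1 and Soat1 each held a CCAAT box, as did 37.5% of all promoters, and Nr1h3 held no match. The direct repeat in exactly the letters searched was found in no member and in 0.00598% of promoters. Repeats whose half-sites differ from those letters were not searched, so their absence cannot be read from this. A promoter for Abcg1 was not analysed here. These are matches of letters and not measured binding sites.

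At 2 h none of the 8 genes was called in Mild PE against Vehicle, where 0.332% of all probesets were called (0.0805% lower), nor in Severe PE against Vehicle, where 0.0226% were. At an unadjusted p under 0.05 the counts were 3 and 2 genes. At 18 h the picture was different. Mild PE lungs had 2 genes called against Vehicle (1.03% of all probesets, 0.528% lower), Ch25h higher and Cyp27a1 lower. Severe PE lungs had 6 of 8 genes called (7.13% of all probesets): Insig1, Ch25h and Soat1 rose (3.21% of all probesets were called higher) and Abca1, Abcg1 and Cyp27a1 fell (3.91% called lower). Srebf2 and Nr1h3 were not called in these comparisons. At each time the Mild and Severe comparisons share their 3 Vehicle arrays.

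**Figure D1:**
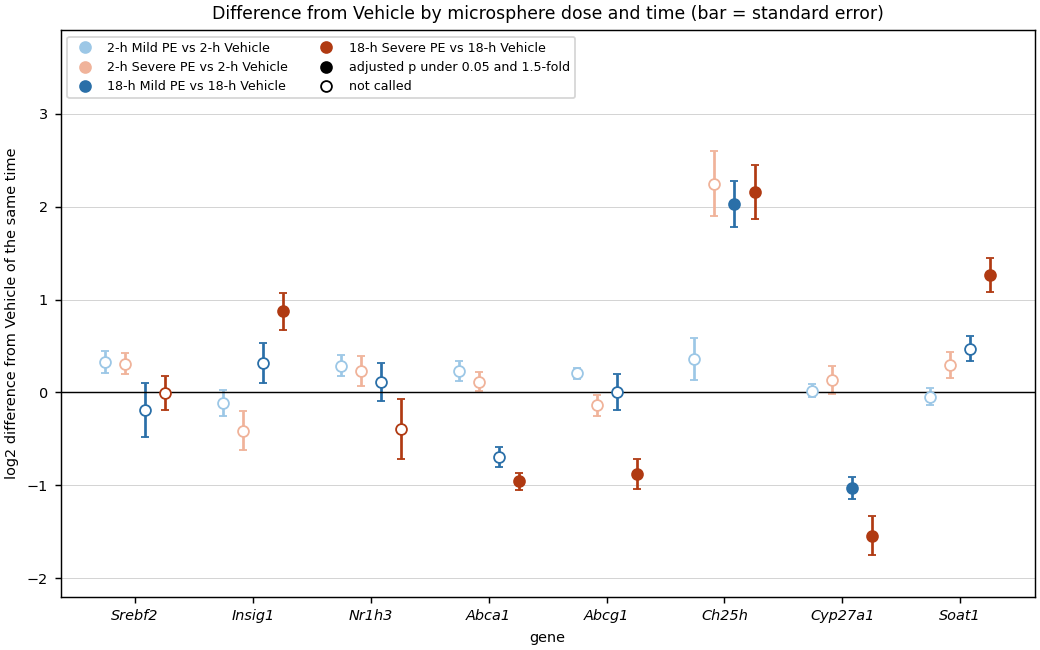
Log2 difference from Vehicle of the same time (y axis, bar = SE) for the 8 genes (x axis) in 2-h Mild, 2-h Severe, 18-h Mild and 18-h Severe PE, with filled points for called genes. Filled points appear only at 18 h, 2 for Mild PE and 6 for Severe PE, and the 2-h Severe PE point of Ch25h lies at 2.25 without being called.

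These counts moved with the arrays in the fit. With the 3'-biased arrays left out, 0 of 8 genes were called at 18 h in either dose, in fits of 2 Vehicle against 3 PE arrays. A single fit of all 6 groups on the 17 arrays that remained called 6 genes in 18-h Severe PE, the same 6, and 3 in 18-h Mild PE, with Abca1 added. The single fit on all 22 arrays called the same numbers, 6 (12.4% of probesets) and 3 (5.12%). For the fit on 17 arrays the share of all probesets called is not reported here, which also holds for later counts from it. Leaving out 1 array at a time from the 18-h Severe comparison gave 2 to 5 genes, the lowest count, Abca1 and Ch25h, being without 18-h Vehicle rat 3. Abca1 and Ch25h stayed called without any 1 of the 7 arrays. Cyp27a1 was lost without Vehicle rat 3, Soat1 without Vehicle rat 2 or rat 3, Abcg1 without any array except Severe PE rat 1, and Insig1 without any array except Vehicle rat 1. In 18-h Mild PE both calls were lost without any array except Mild PE rat 3.

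Srebf2 encodes SREBP-2, the transcription factor that drives the cholesterol synthesis genes. Its group means lay close together. Vehicle rats at 2 h had 11.36, 11.45 and 11.03, Mild PE rats 11.55, 11.52, 11.65 and 11.72, and Severe PE rats 11.50, 11.64, 11.60 and 11.63. At 18 h Vehicle rats had 12.04, 11.36 and 11.43, Mild PE rats 11.36, 10.91, 11.47 and 11.94, and Severe PE rats 11.60, 11.56, 11.75 and 11.48. The 6 group means spanned 0.33, and in the order of those means the range of each group overlapped the next. The 18-h Severe PE difference from Vehicle was -0.01 with a 95% interval of -0.47 to 0.46. At 2 h both PE groups lay just above all Vehicle rats, by 0.33 (SE 0.11, adjusted p = 0.32) in Mild PE and 0.31 (SE 0.11, adjusted p = 0.582) in Severe PE. A further Srebf2 probeset was at the floor in 19 of the 22 arrays.

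Insig1, whose product retains SREBP-2 in the endoplasmic reticulum and whose gene is itself a target of SREBP-2, was highest in 18-h Severe PE. The 18-h Severe PE rats had 10.78, 10.80, 10.69 and 10.98, against 9.48, 10.21 and 10.13 in 18-h Vehicle and 10.49, 10.06, 10.11 and 10.39 in 18-h Mild PE. All 4 Severe PE rats lay above every rat of the other 18-h groups, though 1 rat of 2-h Vehicle, at 10.80, was within their range. The rise over Vehicle was 0.87 (SE 0.19, 1.83-fold, adjusted p = 0.049). The lowest Vehicle value came from rat 1, a 3'-biased array, and without that rat the difference was 0.64 (SE 0.09, adjusted p = 0.0385). In 18-h Mild PE the difference was 0.32 (SE 0.22, adjusted p = 0.508).
At 2 h Severe PE had the lowest mean. Vehicle rats had 10.22, 10.34 and 10.80, Mild PE rats 10.36, 10.27, 10.33 and 10.40, and Severe PE rats 10.42, 10.11, 9.77 and 9.87. The 2-h Severe PE mean was 0.41 below Vehicle, with overlapping values (SE 0.21, adjusted p = 0.733). The change between times in the effect of Severe PE (its 18-h difference from Vehicle minus its 2-h difference) was 1.29 (SE 0.26, adjusted p = 0.00658 in the fit on all 22 arrays). Part of this change lay in Vehicle, whose mean was 10.45 at 2 h and 9.94 at 18 h, against 10.81 in 18-h Severe PE.

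Nr1h3 encodes liver X receptor alpha, the oxysterol-activated receptor that switches on Abca1 and Abcg1. It was called for time in the 2-way model of time and dose and not for dose. The 2-h values were 9.97, 9.96 and 9.61 in Vehicle, 10.05, 10.25, 10.01 and 10.22 in Mild PE and 9.76, 10.03, 10.31 and 10.18 in Severe PE. The 18-h values were 11.27, 10.43 and 10.60 in Vehicle, 10.83, 10.93, 10.94 and 10.83 in Mild PE and 10.59, 10.39, 10.78 and 9.74 in Severe PE. All 18-h Vehicle rats lay above all 2-h Vehicle rats, by 0.93 on average (SE 0.26, adjusted p = 0.255), and Nr1h3 was not called between the Vehicle groups, where 0 of 8 genes and 0.0161% of probesets were (0.00644% higher and 0.00966% lower). In the 22-array fit it was (adjusted p = 0.0373), the 1 gene of 8 beside 2.68% of probesets, and in the 2-way model its time term had an adjusted p of 0.000791. The highest value was again in 18-h Vehicle rat 1, and with the 3'-biased arrays left out the Vehicle difference was 0.55 (SE 0.08, adjusted p = 0.327). No dose effect was called: the 18-h Severe PE difference was -0.39, with a 95% interval of -1.21 to 0.43 that includes a fall of 2-fold. All 4 Severe PE rats lay below all 4 Mild PE rats at 18 h, by 0.51 on average (the difference being -0.51, SE 0.22, adjusted p = 0.362).

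**Figure D2:**
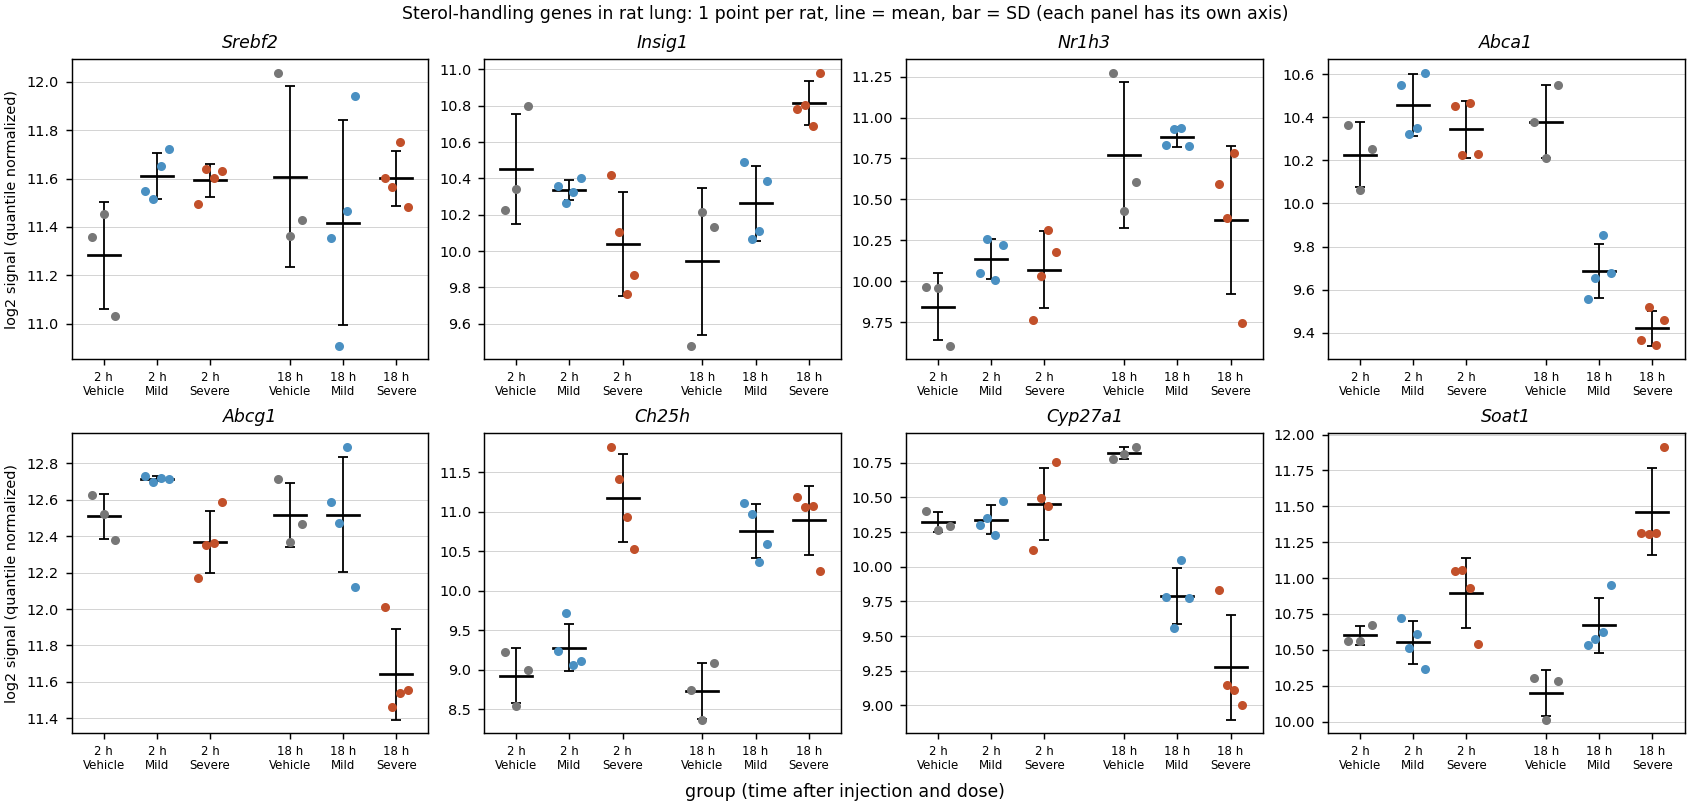
Log2 signal (y axis, quantile normalized) of the 8 genes in each group (x axis), 1 point per rat, with the group mean and SD. Ch25h is high in 2-h Severe and both 18-h PE groups, Abca1 and Cyp27a1 are low in both 18-h PE groups, and Abcg1 and Soat1 in 18-h Severe PE lie apart from all other groups, whereas Insig1 there lies apart from the other 18-h groups and overlaps 2-h Vehicle.

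Ch25h, which makes 25-hydroxycholesterol, an oxysterol that restrains SREBP-2 and is produced by activated macrophages, had the widest span of the 8 genes, with group means 2.44 apart. At 2 h Vehicle rats had 9.23, 8.54 and 9.003 and Mild PE rats 9.24, 9.71, 9.06 and 9.11, whereas Severe PE rats had 11.82, 11.41, 10.93 and 10.53. At 18 h Vehicle rats had 8.74, 8.37 and 9.09, Mild PE rats 11.11, 10.97, 10.36 and 10.60, and Severe PE rats 11.18, 11.06, 11.07 and 10.25. The values thus fell into a low set (Vehicle at both times and 2-h Mild PE) and a high set (2-h Severe PE and both PE groups at 18 h), and the highest rat of the low set, at 9.71, was below the lowest of the high set, at 10.25.
In 18-h Mild PE the rise over Vehicle was 2.03 (SE 0.25, 4.08-fold, adjusted p = 0.0374), and in 18-h Severe PE it was 2.16 (SE 0.29, 4.46-fold, adjusted p = 0.0152). These 2 groups differed by 0.13, with a 95% interval of -0.50 to 0.76. In 2-h Severe PE the rise over Vehicle was as large, 2.25 (SE 0.35, 4.76-fold), but was not called (adjusted p = 0.177), and over 2-h Mild PE it was 1.89 (SE 0.30, adjusted p = 0.0603), in a comparison that called 0 of 8 genes and 0.438% of probesets. The single fit on all 22 arrays called both (adjusted p = 0.000658 and 0.00327), in each case the 1 gene of 8 called, beside 0.606% and 0.577% of probesets. In 2-h Mild PE the difference was 0.36, with a 95% interval of -0.23 to 0.94. The effect of Mild PE at 18 h minus that at 2 h was 1.67 (SE 0.42, adjusted p = 0.0775), and that of Severe PE was -0.09 (SE 0.42, adjusted p = 0.957).

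Cyp27a1, the mitochondrial sterol 27-hydroxylase that makes 27-hydroxycholesterol, fell at 18 h. Vehicle rats at 18 h had 10.78, 10.81 and 10.86, Mild PE rats 9.78, 9.56, 10.05 and 9.77, and Severe PE rats 9.83, 9.15, 9.11 and 9.01. No PE rat reached the lowest Vehicle rat. The fall was 1.03 in Mild PE (the difference being -1.03, SE 0.12, adjusted p = 0.0333), a level 2.04-fold lower, and -1.54 in Severe PE (SE 0.21, adjusted p = 0.0159), a level 2.92-fold lower. The lower mean in Severe than in Mild PE (-0.52, SE 0.20, adjusted p = 0.324) was not called, with 1 Severe PE rat, at 9.83, inside the Mild PE range.
At 2 h all 11 rats lay between 10.12 and 10.75 and the groups overlapped. The Vehicle mean was 10.32 at 2 h and 10.82 at 18 h, without overlap (0.50, SE 0.06, adjusted p = 0.162). Against the 2-h Vehicle mean of 10.32 both 18-h PE means, 9.79 and 9.27, were still lower. The effect differed between times in Mild PE (-1.05, SE 0.24, adjusted p = 0.0496) and in Severe PE (-1.68, SE 0.24, adjusted p = 0.000763). The first of these was at the threshold, and it was lost without any of 13 of the 14 Mild PE and Vehicle arrays in turn.

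Abca1, the transporter that hands cholesterol to apolipoprotein A-I, was lower in both 18-h PE groups than in Vehicle by its main probeset. At 18 h Vehicle rats had 10.38, 10.21 and 10.55, Mild PE rats 9.56, 9.65, 9.85 and 9.68, and Severe PE rats 9.37, 9.52, 9.35 and 9.46. The 3 groups did not overlap. Severe PE was lower than Vehicle by a difference of -0.96 (SE 0.09, 1.94-fold lower, adjusted p = 0.00843). Mild PE was lower by -0.69 (SE 0.11, 1.62-fold lower, adjusted p = 0.0531), which missed the threshold in the fit of those 2 groups and passed in the 22-array fit (adjusted p = 0.000957).
The 2-h values were 10.36, 10.06 and 10.25 in Vehicle, 10.55, 10.32, 10.35 and 10.61 in Mild PE and 10.45, 10.22, 10.47 and 10.23 in Severe PE, with overlap throughout. Between times the effect by this main probeset changed by -0.92 in Mild PE (SE 0.15, adjusted p = 0.0112) and by -1.07 in Severe PE (SE 0.15, adjusted p = 0.000643).

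The 4 Abca1 probesets did not all follow this course. Probeset 1384381_at ran with the main probeset (r = 0.87 over the 22 arrays, which share their normalization) and was -1.14 in 18-h Severe PE (SE 0.25, adjusted p = 0.0486). The probesets 1382431_at and 1394490_at correlated with each other (r = 0.88) more than with the main probeset (r = 0.36 and 0.56). Already at 2 h they were lower in Severe PE than in Vehicle, by -2.34 (SE 0.52, adjusted p = 0.321) and -1.25 (SE 0.32, adjusted p = 0.389), where the main probeset was 0.12 higher. For 1382431_at the 2-h Severe PE rats had 8.50, 7.68, 9.72 and 8.01, against 10.44, 11.16 and 10.85 in Vehicle, with no overlap. Its 18-h Vehicle rats had 7.17, 10.21 and 10.41, the low one being rat 1, with the largest Gapdh 3' over 5' difference of the 22 arrays. In 18-h Mild PE neither probeset was below Vehicle on average: 1382431_at differed by 0.62 (SE 0.88, adjusted p = 0.767) and 1394490_at by 0.02 (SE 0.71), against -0.69 for the main probeset. In 18-h Severe PE their means were 7.95 and 7.21, against 9.26 and 8.26 in Vehicle, smaller falls than at 2 h. In 2-h Mild PE their means were 10.66 and 9.14, against 10.82 and 9.49 in Vehicle. Their effects thus changed between times in the opposite direction to the main probeset in both doses. When all 4 probesets were averaged, Abca1 was no longer called in 18-h Severe PE. The part of 5' signal in these disagreements was not tested.

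**Figure D3:**
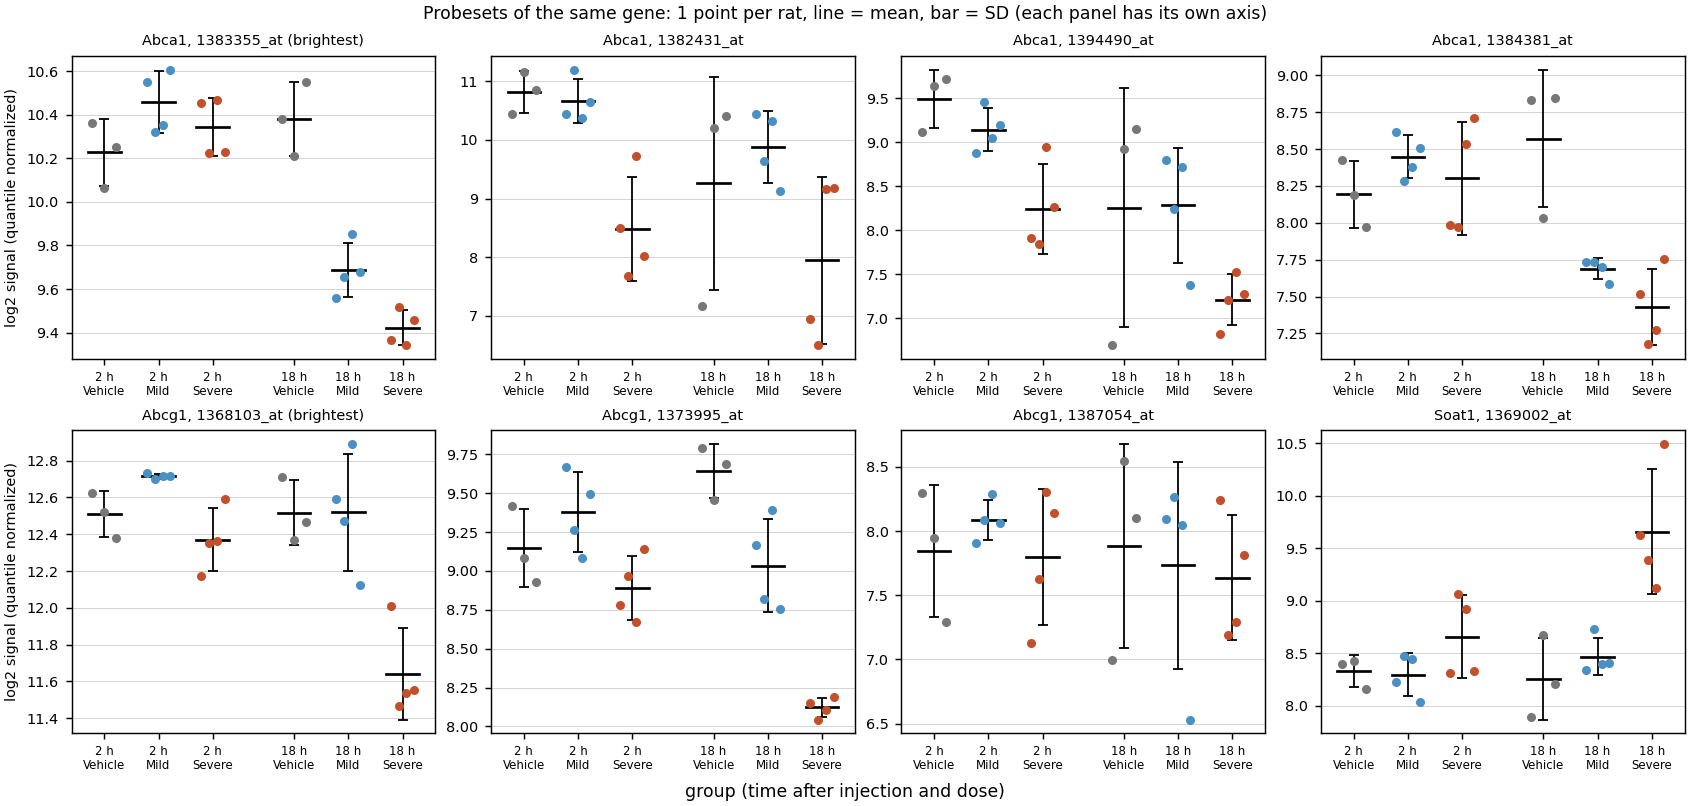
Log2 signal (y axis) by group (x axis), 1 point per rat with mean and SD, for the 4 Abca1 probesets, the 3 Abcg1 probesets and the further Soat1 probeset. Abca1 1382431_at and 1394490_at are lower in 2-h Severe PE than in 2-h Vehicle and have 1 low rat in 18-h Vehicle, and 18-h Mild PE is as low as 2-h Severe PE for 1394490_at (means 8.28 and 8.24) but not for 1382431_at (9.88 and 8.48), while Abcg1 1373995_at holds all 18-h Severe PE rats between 8.04 and 8.19, below every other rat.

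Abcg1, the exporter that loads cholesterol onto mature high-density lipoprotein and is abundant in alveolar macrophages, fell in 18-h Severe PE. The 18-h Severe PE rats had 12.01, 11.46, 11.54 and 11.55, against 12.71, 12.37 and 12.47 in Vehicle and 12.59, 12.47, 12.89 and 12.12 in Mild PE. All 4 Severe PE rats were below all 18 other rats of the series. The difference from Vehicle was -0.88 (SE 0.16, 1.84-fold lower, adjusted p = 0.0302), while that of Mild PE was 0.00, with a 95% interval of -0.50 to 0.50. Severe against Mild PE at 18 h gave -0.88 (SE 0.19, adjusted p = 0.143). None of the 8 genes and 0% of probesets were called in that comparison. At an unadjusted p under 0.05 the count was 5, and the 22-array fit called Abcg1 and Soat1 (1.05% of probesets).
At 2 h Vehicle rats had 12.63, 12.52 and 12.38, Mild PE rats 12.73, 12.70, 12.72 and 12.72 and Severe PE rats 12.17, 12.35, 12.36 and 12.59. Mild PE rats were above all Vehicle rats by 0.21 on average (SE 0.06, adjusted p = 0.257).
Probeset 1373995_at fell further in 18-h Severe PE (-1.52, SE 0.09, 2.87-fold lower, adjusted p = 0.00348), and in 18-h Mild PE it was lower as well, by -0.61 (SE 0.18, adjusted p = 0.159). The dimmer 1387054_at was -0.25 in 18-h Severe PE (SE 0.45) and had overlapping groups.

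Soat1, which esterifies free cholesterol for storage in lipid droplets, rose in 18-h Severe PE. These rats had 11.32, 11.31, 11.32 and 11.91, against 10.30, 10.01 and 10.28 in 18-h Vehicle and 10.53, 10.58, 10.62 and 10.95 in 18-h Mild PE, so the 3 groups did not overlap. The rise was 1.26 in Severe PE (SE 0.18, 2.40-fold, adjusted p = 0.0181) and 0.47 in Mild PE (SE 0.13, 1.39-fold, adjusted p = 0.138), and Severe exceeded Mild PE by 0.79 (SE 0.17, adjusted p = 0.14).
At 2 h Vehicle rats had 10.56, 10.56 and 10.68, Mild PE rats 10.72, 10.51, 10.61 and 10.37, and Severe PE rats 11.05, 11.06, 10.93 and 10.54. In 3 of 4 Severe PE rats the value was above all Vehicle rats, and the difference was 0.29 (SE 0.14, adjusted p = 0.717). The 18-h Vehicle rats lay below the 2-h Vehicle rats (-0.40, SE 0.10, adjusted p = 0.236). The effect of Severe PE grew between 2 and 18 h by 0.97 (SE 0.22, adjusted p = 0.014). Its further probeset, 1369002_at, moved alike (r = 0.83): 9.63, 9.39, 9.12 and 10.49 in 18-h Severe PE against 7.90, 8.67 and 8.21 in Vehicle, a difference of 1.40 (SE 0.37, adjusted p = 0.0752).

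Tests of the change in effect between 2 and 18 h called 2 of 8 genes for Mild PE (0.744% of probesets), Abca1 and Cyp27a1, and 4 for Severe PE (5.73%), of which Insig1 and Soat1 were positive (2.49% of probesets) and Abca1 and Cyp27a1 negative (3.24%). In the 2-way model of time and dose over all 22 arrays, which calls a gene at an adjusted p under 0.05 when its group means span at least 1.5-fold, the time term was called for 4 genes (17.6% of probesets), Abca1, Abcg1, Cyp27a1 and Nr1h3. The dose term was called for 5 (9.93%), Abca1, Abcg1, Ch25h, Cyp27a1 and Soat1. The interaction was called for 5 (3.62%), Abca1, Ch25h, Cyp27a1, Insig1 and Soat1. Srebf2 was called in none of these. The Abca1 calls rest on its main probeset, and the change between times went the other way for 1382431_at and 1394490_at.

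The rest of the cholesterol pathway was described through 5 gene lists. Of 20 listed synthesis genes 17 could be measured, and 11 of them were called higher and 0 lower in 18-h Severe PE than in Vehicle. Over all probesets 3.21% were called higher and 3.91% lower. The median difference was 0.87, where the median over all probesets was 0. Fdps, which makes farnesyl diphosphate, was 0.87 higher (SE 0.06, adjusted p = 0.00408). Mvd, which makes isopentenyl diphosphate, was 1.21 higher (SE 0.12, adjusted p = 0.00858). Msmo1 and Cyp51, which demethylate sterol intermediates, were higher by 1.03 (SE 0.11) and 1.67 (SE 0.20). In 18-h Mild PE 0 of the 17 were called, with a median of 0.45, and at 2 h 0 were called in either dose. With the 3'-biased arrays left out 1 of the 17 was called in 18-h Severe PE, and in the single fit on the 17 arrays that remained 10 were.
The mean log2 signal of the 17 synthesis genes was 8.94, 8.94 and 9.05 in 18-h Vehicle, 9.56, 9.51, 9.04 and 9.62 in Mild PE and 9.81, 9.90, 9.88 and 9.80 in Severe PE. Mild PE rat 3 sat within the Vehicle range, whereas its Ch25h, at 10.36, was well above it. Across the 22 rats this mean correlated positively with Soat1 (r = 0.73), Insig1 (r = 0.69), Ch25h (r = 0.54) and Nr1h3 (r = 0.20), negatively with Cyp27a1 (r = -0.91), Abca1 (r = -0.89) and Abcg1 (r = -0.81), and not with Srebf2 (r = 0.00). After group means were taken out these became, in the same order, 0.14, 0.36, 0.29, -0.14, -0.38, -0.15, -0.67 and -0.05. These correlations describe arrays that share groups and normalization.

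Among genes of efflux and lipoprotein exchange, 3 of 10 measured fell in 18-h Severe PE and 0 rose, with a median of -0.43 (3.91% of all probesets were called lower). Without the 3'-biased arrays 0 of the 10 were called, and 4 in the single fit without them. Pltp, the phospholipid transfer protein, was -1.44 (SE 0.11, adjusted p = 0.00581) and was also called in 18-h Mild PE (-0.91, SE 0.11, adjusted p = 0.0383). Apoe, the lipoprotein ligand made by macrophages, was -0.83 (SE 0.11, adjusted p = 0.0152). Cav1, the caveolar coat protein, which is also in the list of type I cell markers used here, was -0.71 (SE 0.12, adjusted p = 0.0245).
In the uptake and lysosomal release list 1 of 7 measured genes was called, Vldlr, a receptor for triglyceride-rich lipoproteins, at -1.26 (SE 0.11, adjusted p = 0.0074), where 7.13% of all probesets were called. Of 9 measured partners in sterol sensing 1 was called, Mylip, which marks lipoprotein receptors for degradation and is a liver X receptor target, at -1.18 (SE 0.18, adjusted p = 0.0197). Without the 3'-biased arrays 0 genes of either list were called, and in the single fit without them 1 of the uptake and 2 of the sensing genes were. Of 8 measured oxysterol and ester genes 0 were called, 6 having positive differences, with a median of 0.38. In all 5 lists 0 genes were called at 2 h in either dose.

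**Figure D4:**
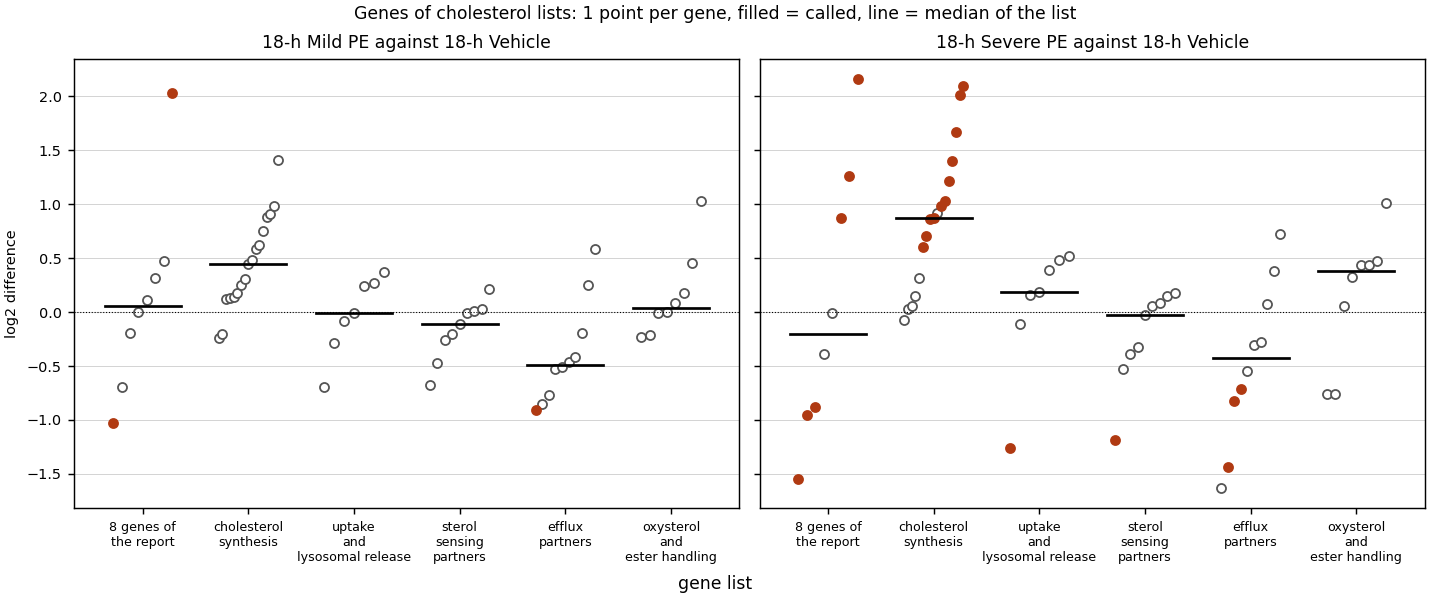
Log2 difference from Vehicle at 18 h (y axis) for the 8 genes and the genes of 5 cholesterol lists (x axis), Mild PE on the left and Severe PE on the right, with filled points for called genes and a line at each list's median. In Severe PE 11 of 17 synthesis genes are filled above 0 and 3 of 10 efflux partners are filled below 0.

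Some of the cell type marker lists shifted in the PE groups at 18 h, and others did not. Over all probesets, 0.506% were called higher and 0.528% lower in 18-h Mild PE, and 3.21% higher and 3.91% lower in 18-h Severe PE. The summed signal of 7 alveolar macrophage markers had a log2 level of 13.75 to 13.89 in 18-h Vehicle, 14.48 to 14.65 in Mild PE and 14.67 to 14.78 in Severe PE. Of the 7 markers 1 rose in each PE group, Chi3l1 (1.61 and 1.78), and 1 fell, Car4 (-1.33 and -1.96), which endothelium also expresses. Chi3l1 contributed the largest part of the summed signal in both PE groups, and the median difference of the 7 markers was 0.01 in Mild PE and 0.73 in Severe PE. In Mild PE Mrc1 differed by 0.01, Fabp4 by 0.00 and Pparg by -0.18, none of them called. The sum of 10 monocyte and interstitial macrophage markers was 13.31 to 13.62 in Vehicle, 13.97 to 14.24 in Mild PE and 13.96 to 14.15 in Severe PE, with 0 called in Mild PE and 2 in Severe PE, Cd14 (1.18) and Cd163 (2.07). At 2 h the monocyte and interstitial macrophage sum was higher in Mild PE, at 13.54 to 13.77, than in Vehicle, at 12.90 to 13.46. The neutrophil sum of 6 genes had overlapping ranges among the 18-h groups, from 13.70 to 15.22. The fibroblast and smooth muscle sums also overlapped between 18-h Vehicle and each PE group, with 0 genes called.
The endothelial sum of 7 genes went from 15.43 to 15.49 in 18-h Vehicle to between 14.96 and 15.26 in Mild PE and between 14.71 and 14.95 in Severe PE. In 18-h Severe PE 3 of the 7 fell, Tie1 (-0.79), Vwf (-0.70) and Emcn (-0.88), where 3.91% of all probesets were called lower and 3.21% higher. The type I cell sum of 6 genes ranged from 16.16 to 16.29 in 18-h Vehicle and from 15.71 to 15.97 in Severe PE. At 2 h the endothelial sum was also lower in Severe PE, at 15.14 to 15.31, than in Vehicle, at 15.38 to 15.42, and in Mild PE it was higher, at 15.48 to 15.55. The type II cell sum of 8 genes stayed within 17.05 and 17.22 in all 22 rats, although 1 of the 8, Lamp3, rose in 18-h Severe PE (1.05). The lymphocyte sum of 6 genes ranged from 12.17 to 12.61 in 18-h Vehicle, from 11.35 to 12.11 in Mild PE and from 11.09 to 11.75 in Severe PE. At 2 h it ranged from 11.03 to 12.15 in Vehicle, 11.50 to 11.75 in Mild PE and 11.17 to 11.66 in Severe PE. Every 18-h Vehicle rat thus lay above all 2-h rats. In 18-h Severe PE all 6 lymphocyte markers had negative differences (median -0.94), and 1 was called, Cd79b (-1.21). Of 5 airway markers 1 was called lower there, Cyp2f4 (-2.18), the list having a median of -0.09. At 2 h 0 markers were called against Vehicle in either dose. No marker of these lists was at the floor in all rats of a group. The part of these shifts in the changes of the 8 genes was not tested.

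**Figure D5:**
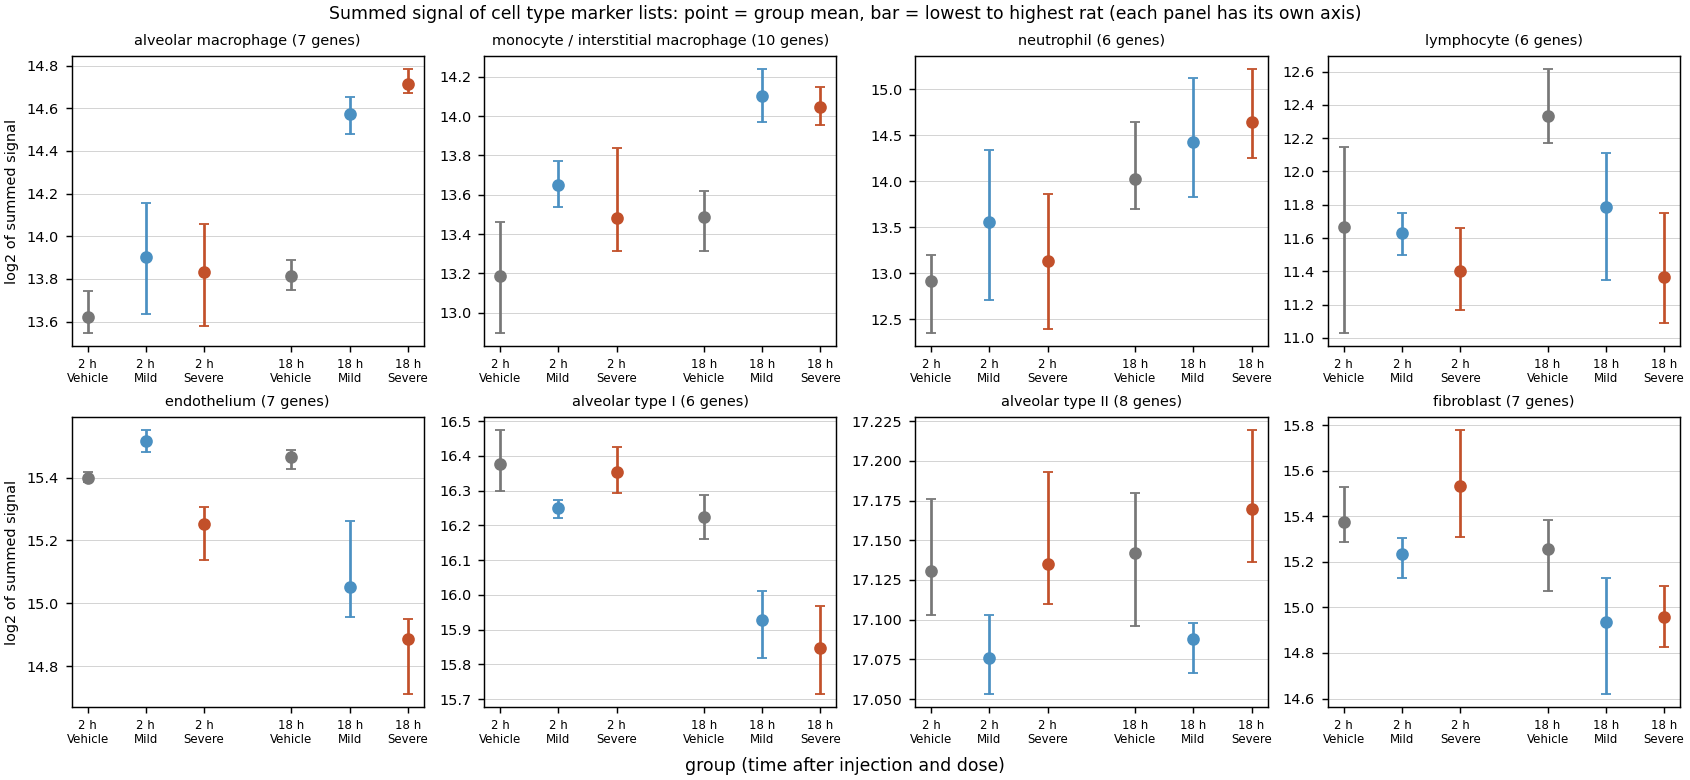
Log2 of the summed signal (y axis) of 8 cell type marker lists in each group (x axis), point = mean and bar = lowest to highest rat. At 18 h the macrophage sums are higher in both PE groups than in Vehicle (for alveolar macrophages in Mild PE with a median difference of 0.01 over the 7 markers). The endothelial, type I and lymphocyte sums are lower in both PE groups than in Vehicle at 18 h, while the type II sum stays within 17.05 and 17.22.

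Of 9868 genes with a mean log2 signal of at least 7, the following had the profile most like each member over the 22 rats, by Pearson correlation. Ch25h ran most closely with Myc (r = 0.93), the growth-related transcription factor, and Urb2 (r = 0.89). Cyp27a1 ran with Nme3 (r = 0.97) and Cracr2b (r = 0.95). Abca1 ran with Cmklr1, the chemerin receptor, and Col13a1, a membrane collagen (r = 0.93 for each). Abcg1 ran with Prrc2b (r = 0.91) and Amotl1 (r = 0.90), and Soat1 with the lipid transporter Mfsd2a (r = 0.92) and Sowahc (r = 0.89). Insig1 ran with Ssr3, a subunit of the translocon-associated complex, and the fibrinogen gene Fgg (r = 0.89 for each). For Nr1h3 the closest were Sh3bgrl3 and Edf1 (r = 0.88 for each). Srebf2, whose groups barely differed, had the weakest leading values, Abcc3 (r = 0.77) and Zfp346 (r = 0.75).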

How the data were processed

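The deposited table holds linear probeset signal intensities of 31099 probesets. In the deposited values every array has a trimmed mean of about 500, so they were scaled by the authors before deposit. The software is not given in the sources used here, and the GC-RMA values of the study's methods were not analysed here. Values were floored at 16, taken to log2, quantile normalized and tested with limma 3.58.1 in R 4.3.3, on the 2 groups compared, after 57 array controls were left out. Changes in effect and the 2-way model used all 22 arrays. Calls needed an adjusted p under 0.05 and 1.5-fold. Tests were checked on simulated data. Symbols came from the platform annotation (20826 probesets with 1 symbol, 436 with several, 9780 with none). The named genes were the 8 members, up to 4 called genes per list by smallest adjusted p, and 2 most correlated genes per member. Marker genes were named after their values were seen. Members and lists were chosen with earlier results of these data known. Listed genes without a named probeset were not analysed here. Alternatives were other scaling, floors, filters, fits and array omissions. The number of arrays limits the precision, the file has no detection calls, and quantile normalization removes any overall shift. Labels call the samples biological replicates. Same-numbered rats did not deviate together (residual correlation -0.27 to 0.12, median -0.01, over 51 pairs of arrays, 1 above 0.1).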

Additional observations from a re-analysis of the deposited data

Results flagged for a closer look

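In 7 of 60 combinations of a probeset with a group of 4 rats, 1 rat lay far from the other 3 of its group. For continuous and independent values chance alone flags about 1 in 20 such groups. That rate does not hold for these 60, which include floored groups and several probesets of 1 gene. A single value above 3 floored ones is always flagged. Among the main probesets, Abcg1 in 18-h Severe PE rat 1 was 12.01 (the nearest rat 11.55), Cyp27a1 in the same rat was 9.83 (nearest 9.15), Ch25h in 18-h Severe PE rat 4 was 10.25 (nearest 11.06), and Soat1 in that rat was 11.91 (nearest 11.32). For Abcg1, Cyp27a1 and Ch25h the rat named lay nearer to Vehicle than the rest of its group, and for Soat1 farther from it. Among the other probesets, Abcg1 1387054_at in 18-h Mild PE rat 4, a 3'-biased array, was 6.53 (nearest 8.05). Srebf2 1377489_at was just above the floor of 4 in 2-h Severe PE rat 2 (4.17) and 18-h Mild PE rat 1 (4.56), the other 3 rats of each group being at the floor.

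The difference from Vehicle changed between 2 and 18 h, by the test of that change on all 22 arrays, for Abca1 (-0.92 in Mild PE and -1.07 in Severe PE), Cyp27a1 (-1.05 and -1.68), Insig1 (1.29 in Severe PE) and Soat1 (0.97 in Severe PE). These are values of the main probesets, and the Abca1 probesets 1382431_at and 1394490_at changed in the opposite direction.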

How the results depend on the processing

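None of 35 member differences with an unadjusted p under 0.05 turned its sign in 358 values under 11 alternatives or in 313 values with 1 array left out. Alternatives that changed only the test or the set of probesets kept the same group means, so no sign could turn in them. The 35 were also picked by their p in these same data, which makes a turned sign unlikely. What moved was the calls. Counts of the 8 genes called became as follows where they moved by more than 1.5 times. Median centring gave 1 for 2-h Severe against Mild PE (0 in the report) and 1 for the change in the effect of Mild PE (2 in the report), and it moved the median of all probesets between the Vehicle groups to 0.165. A floor of 64 gave 1 for 18-h Mild PE (2 in the report) and 1 for the change in the effect of Mild PE. Without probesets of mean log2 signal under 7, 2-h Severe PE gave 1 against Vehicle and 1 against Mild PE. Averaging the probesets of each gene gave 0 for the change in the effect of Mild PE and 3 for the interaction (5 in the report). An unmoderated test like that of the study's methods gave 0 for 18-h Mild PE. It was run on the values used here and not on the study's GC-RMA values. With the replicate block, although same-numbered rats did not deviate together, 18-h Mild PE gave 0, 18-h Severe PE gave 0 (6 in the report) and the change in the effect of Mild PE gave 1. Without the 3'-biased arrays, 18-h Mild PE gave 0, 18-h Severe PE gave 0, the change in the effect of Mild PE gave 0, the interaction gave 3 and 2-h Severe against Mild PE gave 1. Those arrays were left out of a single fit as well, an alternative chosen after seeing the data: 2-h Severe PE then gave 1 against Vehicle and 1 against Mild PE, and 18-h Severe against Mild PE gave 3. The single fit on all 22 arrays gave 1 for 2-h Severe against Vehicle, 1 for 2-h Severe against Mild PE, 2 for 18-h Severe against Mild PE and 1 between the Vehicle groups.

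Over all probesets, 18-h Severe PE called 2212 in the fit of its 2 groups, 0 with the replicate block, 95 without the 3'-biased arrays, 1291 by the unmoderated test and 3838 in the single fit on 22 arrays; 18-h Mild PE called 321, 0, 3, 54 and 1589. Leaving out 1 array gave 0 to 3 genes for 18-h Mild PE (3 without 18-h Mild PE rat 3, 0 without any other array), 2 to 5 for 18-h Severe PE, 0 to 1 for 2-h Severe against Mild PE (1 without 2-h Severe PE rat 1), 1 to 3 for the change in the effect of Mild PE (3 without 18-h Mild PE rat 3), 4 to 5 for that of Severe PE, 4 to 4 for time, 5 to 5 for dose, 4 to 6 for the interaction, and 0 to 0 for the others.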
